A study of Mus musculus with 8 samples.

Results

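The enzymes of ammonia, urea and amino acid handling in the liver were represented by 10 genes chosen by name as rows of the count table, of which 9 are described here, and the table holds 46517 genes beside its 92 spike-in transcripts. The 9 genes are *Cps1*, *Otc*, *Ass1* and *Asl* of the urea cycle, *Glul* and *Gls2*, which make and split glutamine, and *Oat*, *Hal* and *Sds*, which break down ornithine, histidine and serine. The study sorted single cells from the livers of adult, healthy male and female mice into wells and sequenced each with Smart-seq2, a method that reads along the whole transcript, and 3491 cells passed the authors' filters. The cells were grouped in 4 classes, namely parenchymal (epithelial), endothelial, immune and mesenchymal cells, each with 1 male and 1 female pool, so that the series holds 8 pools. The mice were C57BL6/J or carried, heterozygously and alone or combined, the reporters Pdgfrb-GFP, Pdgfra-H2bGFP, Acta2-GFP, Cspg4-dsRED or Cldn5-GFP, in which the promoter of the named gene drives the fluorescent label. Mesenchymal cells were taken by the Pdgfra, Pdgfrb and Acta2 reporters or a PDGFRα antibody, endothelial cells by CD31, VE-cadherin or Cldn5-GFP, macrophages by CD68 and cholangiocytes, the cells of the bile ducts, by EPCAM, whereas hepatocytes came from living cells sorted without a marker. The labels do not tie single cells to a mouse, and the tests compare pools or the sums of a cluster within a pool, apart from an alternative that uses sums per plate.

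Blood enters the liver lobule at the portal vein and leaves it at the central vein, and hepatocytes along this path differ in the enzymes they carry. The urea cycle, which turns ammonia into urea at high capacity, is known to be strongest towards the portal side, together with liver-type glutaminase and the enzymes that release ammonia from histidine and serine. The last hepatocytes before the central vein carry glutamine synthetase, which binds the ammonia that has passed by, and ornithine aminotransferase, which supplies it with glutamate. These are textbook facts and set the order in which the genes are described here.

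The hepatocytes fell into 4 of the authors' clusters, p1, p3, p4 and p5, with 64, 23, 59 and 57 cells, and 201 of the 203 hepatocytes were male. The position of the clusters on the axis was read from landmark genes. The 5 portal landmarks summed to 3900.5 CPM in p4 and 297.57 CPM in p5, where CPM is the summed count of a gene over the cells of a cluster, scaled to the total of all genes (the usual CPM unit), and *Cyp2f2* stood at 1164 CPM in p4 and 24.9 CPM in p5. The 7 central landmarks summed to 266.93 CPM in p4, 3389.6 CPM in p5 and 6986.3 CPM in p3, with *Cyp2e1* at 201, 2770 and 4561 CPM in these clusters, and *Axin2*, a target of Wnt signalling, at 0.0759 CPM in p4, 35.9 CPM in p5 and 1.05 CPM in p3, although 2 of the 57 p5 cells reached 100 CPM of *Axin2* and 1 more held a count. Thus p4 carried the portal landmarks and p5 and p3 the central ones, while p1 held both sets, at 2250.9 and 2544 CPM. The portal landmarks were not absent from p3, where they summed to 766.72 CPM, more than in p5. The landmark *Cdh1* did not follow the portal group, with 0.228 CPM in p4 and 21.4 CPM in p1. Markers of endothelial, immune and mesenchymal cells summed to 5.22 to 51.6 CPM and those of cholangiocytes to 74.96 and 15.8 CPM in p4 and p5, against 3060 to 8025.5 CPM in the male pools or clusters of their own kind, with *Krt19*, *Cd79a* and *Lgr5* at 0 in p4 and *Clec4f* at 0 in p5. In p1 the endothelial and immune markers summed to 155.65 and 93.9 CPM, and in p3 the mesenchymal markers to 290.14 CPM, of which *Acta2* held 254 CPM (5.85 CPM in the p3 cells of the plate that most hepatocytes share). The part of this signal in the results was not tested.

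Cells held 47063 to 1128421 gene counts with a median of 228708, and the medians of the male cells of p1, p3, p4 and p5 were 134847, 153581, 204679 and 149112. Of the male hepatocytes, 155 (77.1%) lay on 1 of the 22 plates, among them 56 of the 59 p4 cells and 56 of the 57 p5 cells, so that p4 and p5 were compared almost wholly within 1 plate. Each hepatocyte cluster is 1 pool of male cells, which gives no replicate, and values between these clusters carry no p-value. Intervals are exact 95% Poisson intervals of counts or exact binomial intervals of cell shares, and since reads without molecular identifiers are not independent molecules they cover counting error only. The clusters were made from the same transcriptomes, so that differences between them are in part built in and are given as a description. In counts summed over cells, fewer cells that express a gene and less RNA per cell cannot be told apart, which is why values of single cells stand beside the sums.

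The sequences upstream of 3 genes that stood at the ends of the axis are shown, *Glul* and *Oat* as the genes highest in p5 and *Hal* as the gene with the largest ratio towards p4. Each is the run of 250 bases before the transcription start in RefSeq on build GRCm38.p6, read 5′ to 3′ on the strand of the gene, at chr1:153899679-153899928 on the plus strand for *Glul*, chr7:132576399-132576648 on the minus strand for *Oat* and chr10:93488518-93488767 on the plus strand for *Hal*. Capitals mark matches to the letters searched on both strands, which were CTTTGA for TCF and LEF factors, CAAAGTCCA for HNF4, TTGCGCAA for C/EBP, TGACGTCA for CREB and TATAAA for the basal promoter element.
Glul: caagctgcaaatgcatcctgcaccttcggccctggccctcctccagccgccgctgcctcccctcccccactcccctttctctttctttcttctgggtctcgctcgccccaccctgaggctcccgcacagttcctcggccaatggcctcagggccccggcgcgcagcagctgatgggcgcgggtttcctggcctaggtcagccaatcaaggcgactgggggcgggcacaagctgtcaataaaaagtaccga
Oat: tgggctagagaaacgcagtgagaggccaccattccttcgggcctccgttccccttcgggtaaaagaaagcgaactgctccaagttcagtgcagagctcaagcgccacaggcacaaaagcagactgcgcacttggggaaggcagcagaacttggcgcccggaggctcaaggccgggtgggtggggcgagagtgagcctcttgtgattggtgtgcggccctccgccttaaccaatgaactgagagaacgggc
Hal: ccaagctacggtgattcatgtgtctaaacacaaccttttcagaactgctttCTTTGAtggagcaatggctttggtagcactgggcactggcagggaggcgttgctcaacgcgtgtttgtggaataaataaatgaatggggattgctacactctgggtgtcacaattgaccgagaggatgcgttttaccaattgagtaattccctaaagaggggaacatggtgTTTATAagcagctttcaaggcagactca
*Hal* held 2 matches, CTTTGA beginning 199 bases before the start and TTTATA, the reverse complement of TATAAA, beginning 28 bases before it, and *Glul* and *Oat* held none. Over the same window of all 32851 promoters of the table, CTTTGA occurred in 13.8%, CAAAGTCCA in 0.384%, TTGCGCAA in 0.164%, TGACGTCA in 1.55% and TATAAA in 12.4%. A match is a description of letters and neither a bound site nor a cause of a level. The table held 5 of the 9 genes, of which *Ass1* and *Otc* also had no match, while *Cps1*, *Asl*, *Gls2* and *Sds* were not matched in it.

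Between p4 and p5, the 9 genes fell into 3 kinds. *Hal*, *Sds* and *Gls2* were 135, 80.3 and 22.6 times as high in p4, the 4 urea cycle genes were 1.54 (*Otc*) to 3.21 (*Ass1*) times as high in p4 but present in both, and *Glul* and *Oat* were 57.2 and 35.2 times as high in p5. By a log2 ratio of at least 1, taken on CPM + 0.5, 6 of the 9 genes were higher in p4 and 2 were higher in p5, and *Otc* stayed below this size. Of the 8488 genes with at least 10 CPM in either cluster, 1741 (20.5%) were higher in p4 and 1541 (18.2%) in p5 by the same measure, with a median log2 ratio of 0.05. The plot of cluster levels shows these kinds side by side.

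**Figure D1:**
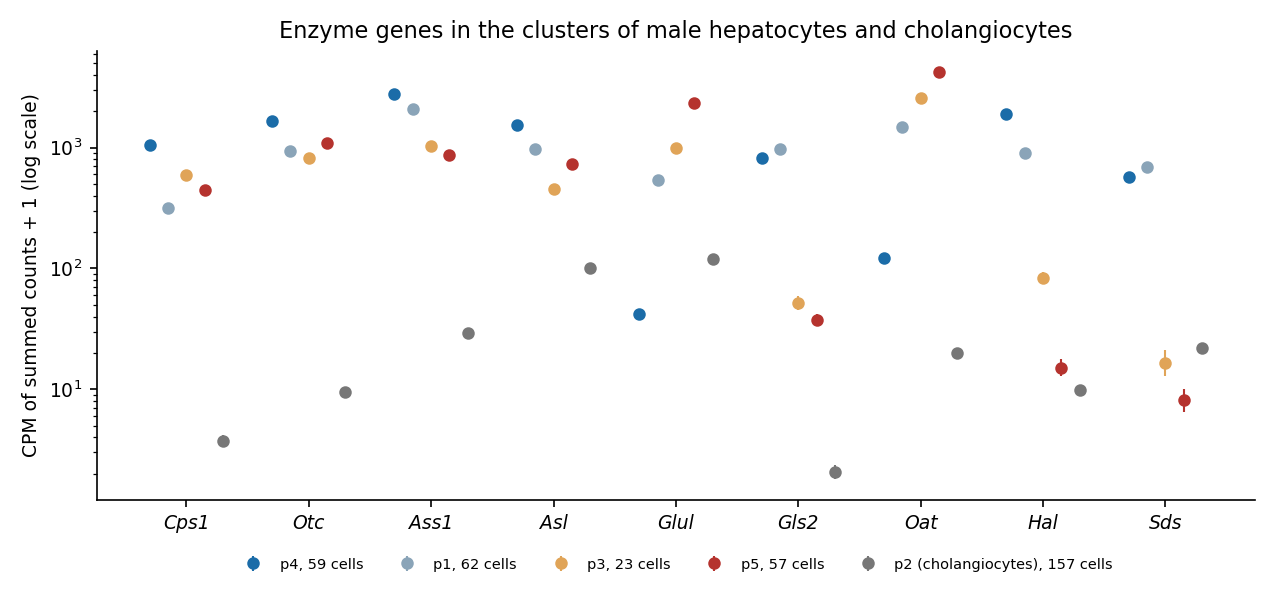
Level of the 9 enzyme genes in the male cells of the hepatocyte clusters p4, p1, p3 and p5 and of the cholangiocytes (p2), as CPM of summed counts + 1 on a log scale, with exact Poisson intervals for counting error as bars. *Cps1*, *Otc*, *Ass1* and *Asl* stay above 300 CPM in every hepatocyte cluster, *Glul* and *Oat* climb from 41.4 and 121 CPM in p4 to 2365 and 4259 CPM in p5, and *Gls2*, *Hal* and *Sds* drop from 827, 1899 and 570 CPM in p4 to 36.6, 14.1 and 7.10 CPM in p5.

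*Cps1*, which encodes the mitochondrial enzyme that captures ammonia as carbamoyl phosphate, stood at 1042 CPM in p4 (interval 1025 to 1060), 316 CPM in p1, 587 CPM in p3 and 447 CPM in p5 (434 to 461). The log2 ratio of p4 to p5 was 1.22. Its summed level hid a contrast between cells, since 53 of 59 p4 cells but 22 of 57 p5 cells reached 100 CPM, with medians of 930 CPM and 0 CPM. *Otc*, which joins carbamoyl phosphate to ornithine, was the most even of the 4 genes, at 1668 CPM in p4, 946 CPM in p1, 823 CPM in p3 and 1083 CPM in p5. Its log2 ratio of p4 to p5 was 0.62, with 58 of 59 p4 cells and 44 of 57 p5 cells at 100 CPM or more.

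*Ass1*, which condenses citrulline with aspartate, stood at 2786 CPM in p4, 2096 CPM in p1, 1041 CPM in p3 and 868 CPM in p5, a log2 ratio of p4 to p5 of 1.68. *Asl*, which cleaves argininosuccinate to arginine, stood at 1541, 979, 451 and 735 CPM in the same order, a log2 ratio of 1.07. All 59 p4 cells held *Ass1* and *Asl* at 100 CPM or more, whereas 33 and 39 of the 57 p5 cells did. Per kilobase of exon, the order in p4 was *Ass1* (1154 CPM per kb), *Otc* (393), *Asl* (319) and *Cps1* (188), and in p5 *Ass1* (360), *Otc* (255), *Asl* (152) and *Cps1* (80.5). *Cps1*, the entry step, thus had the lowest level per length of these 4 genes at both ends.

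*Gls2*, the liver-type glutaminase that frees ammonia from glutamine, stood at 827 CPM in p4, 974 CPM in p1, 50.8 CPM in p3 and 36.6 CPM in p5, and its log2 ratio of p4 to p5 was 4.48. It reached 100 CPM in 48 of 59 p4 cells and in 3 of 57 p5 cells. *Hal*, histidine ammonia-lyase, stood at 1899 CPM in p4, 897 CPM in p1, 82.5 CPM in p3 and 14.1 CPM in p5, the largest ratio of the 9 genes at 7.02 on the log2 scale. It reached 100 CPM in 58 of 59 p4 cells and 3 of 57 p5 cells, and the highest p5 cell held 206 CPM against a median of 1924 CPM in p4. *Sds*, serine dehydratase, stood at 570 CPM in p4, 691 CPM in p1, 15.4 CPM in p3 and 7.10 CPM in p5, a log2 ratio of 6.23, with 48 of 59 p4 cells and 1 of 57 p5 cells at 100 CPM or more. Over all clusters *Hal* and *Gls2* were together at 100 CPM or more in 66 of the 203 hepatocytes, with *Hal* alone of this pair in 19. Within the 56 p4 cells of the shared plate, Spearman's rho was −0.047 for *Hal* with *Gls2*, 0.11 for *Hal* with *Sds* and 0.18 for *Gls2* with *Sds*. Per kilobase, *Hal* (342 CPM per kb), *Sds* (337) and *Gls2* (238) were within the range of *Cps1*, *Otc*, *Ass1* and *Asl* in p4. For *Sds*, 21.3% of the exon bases also lie in exons of *Plbd2* on the opposite strand, and since the strand of counting is not given, its reads and those of *Plbd2* cannot be told apart there. The same holds for the 141 exon bases that *Sds* shares with *Gm15690* and the 97 that *Gls2* shares with *Spryd4*, both on the opposite strand.

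*Glul*, glutamine synthetase, stood at 41.4 CPM in p4 (38.0 to 45.0), 539 CPM in p1, 997 CPM in p3 and 2365 CPM in p5 (2334 to 2396), a log2 ratio of p4 to p5 of −5.82. *Oat*, ornithine aminotransferase, stood at 121 CPM in p4, 1494 CPM in p1, 2597 CPM in p3 and 4259 CPM in p5, a log2 ratio of −5.13. The summed levels of both had the order p4, p1, p3, p5 from low to high, but on the shared plate *Glul* stood at 1397 CPM in p1 and 1191 CPM in p3. In p5, *Oat* reached 1805 CPM per kb and *Glul* 712 CPM per kb, above *Cps1*, *Otc*, *Ass1* and *Asl* in that cluster. The p4 level of *Oat* rested on few cells, since 5 of 59 cells reached 100 CPM and the highest held 2588 CPM against a median of 15.6 CPM, and on the shared plate alone *Oat* stood at 35.6 CPM in p4 and 4395 CPM in p5. The exons of *Glul* share 93 bases with *Mir8114* on the same strand and 116 with *Teddm2* on the opposite strand, which bears on the genes named as most like it.

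Within p5 the cells were not alike in *Glul*. Of its 57 cells, 25 held at least 1000 CPM of *Glul*, 13 held 100 to 1000 CPM, 10 held less than 100 CPM and 9 held none, with a median of 461 CPM and a highest value of 9960 CPM. The 25 cells gave 96.3% of the *Glul* counts of the cluster. In p4, by contrast, no cell of 59 reached 1000 CPM, 6 held 100 to 1000 CPM, 37 held less and 16 held none, with a highest value of 461 CPM. A count of *Glul* was seen in 72.9% of p4 cells (59.7% to 83.6%) and 84.2% of p5 cells (72.1% to 92.5%), shares that lay close together although the levels did not. With all cells thinned to 50000 counts the shares were 45.8% and 77.2%, and with at least 20 counts asked for they were 10.2% and 64.9%. The plot of *Glul* by cell shows how many cells of each cluster reach the high range.

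**Figure D2:**
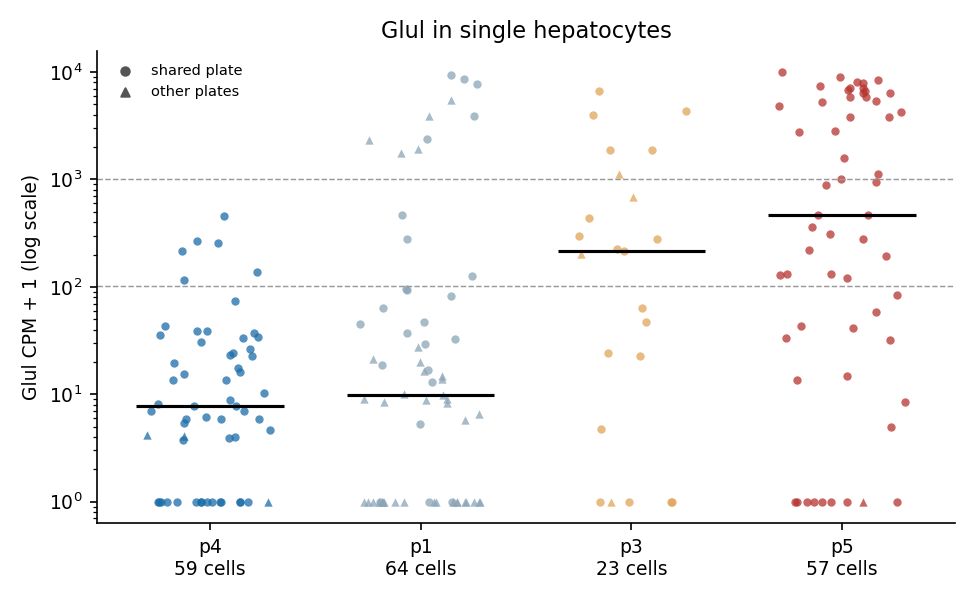
*Glul* in each hepatocyte of p4, p1, p3 and p5, as CPM + 1 on a log scale, with bars at the median, circles for cells of the shared plate and triangles for other plates, and dashed lines at 100 and 1000 CPM. In p5 25 of 57 cells lie at or above 1000 CPM, in p3 6 of 23, in p1 10 of 64 and in p4 none of 59.

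The 25 p5 cells with at least 1000 CPM of *Glul* differed from the other cells of the cluster in *Cps1* and *Ass1*. *Cps1* reached 100 CPM in 1 of these 25 cells, but in 10 of the 13 cells with 100 to 1000 CPM and 11 of the 19 cells with less than 100 CPM of *Glul*. *Ass1* reached it in 4 of 25, 12 of 13 and 17 of 19 cells. The summed counts of the 3 ranges gave the same picture, with *Cps1* at 8.94, 863 and 709 CPM and *Ass1* at 131, 1524 and 1347 CPM. Thus both genes were low in the cells highest in *Glul* and present in most other cells of p5.

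*Otc* and *Asl* were reduced less. *Otc* reached 100 CPM in 17 of 25, 11 of 13 and 16 of 19 cells, with sums of 585, 1409 and 1508 CPM, and *Asl* in 13 of 25, 10 of 13 and 16 of 19 cells, with sums of 477, 897 and 961 CPM. *Oat* went the other way and reached 100 CPM in all 25 cells with at least 1000 CPM of *Glul*, with a median of 8516 CPM, in 9 of 13 cells with 100 to 1000 CPM and in 12 of 19 cells with less. The central landmark *Cyp2e1* stood at 100 CPM or more in all 57 cells, at sums of 3350, 2402 and 2263 CPM. All 25 high cells were on the shared plate, and the median number of genes detected was 2786 in them, 3421 in the middle range and 2851 in the lowest. The ranges were set on *Glul* itself and the cells clustered on all genes, so these counts are a description.

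The same division held over all hepatocytes. Among the 41 cells of any cluster with at least 1000 CPM of *Glul*, *Cps1* reached 100 CPM in 2, *Ass1* in 7, *Asl* in 17, *Otc* in 24 and *Oat* in 38. Among the 133 cells with less than 100 CPM of *Glul*, the corresponding numbers were 77 for *Cps1*, 122 for *Ass1*, 101 for *Asl*, 106 for *Otc* and 43 for *Oat*. *Hal*, *Gls2* and *Sds* reached 100 CPM in 2, 2 and 3 of the 41 cells and in 75, 66 and 59 of the 133. The cells with *Glul* and those with urea cycle genes did overlap, since 33 of 203 cells held both *Glul* and *Ass1*, and 25 held both *Glul* and *Cps1*, at 100 CPM or more.

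**Figure D3:**
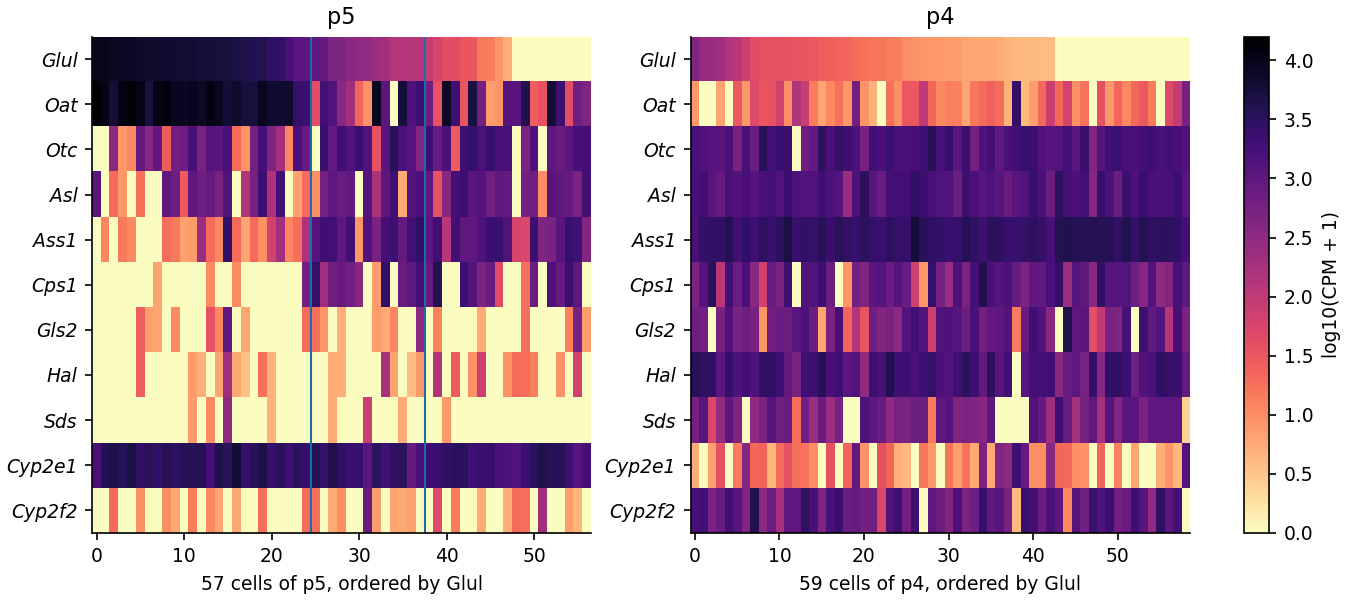
The 9 enzyme genes and the landmarks *Cyp2e1* and *Cyp2f2* in each of the 57 cells of p5 and the 59 cells of p4, ordered by *Glul*, with darker colour for a higher log10 of CPM + 1 and lines in p5 at the bounds of 1000 and 100 CPM of *Glul*. In p5 the cells with the highest *Glul* are dark for *Oat* and pale for *Cps1* and *Ass1*, which reached 100 CPM in 1 and 4 of the 25 cells with at least 1000 CPM of *Glul*.

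Correlations over cells are given as a description, since the cells share a plate, a pool and their clustering. Over the 56 p5 cells of the shared plate, Spearman's rho with *Glul* was 0.73 for *Oat*, −0.70 for *Ass1*, −0.57 for *Cps1*, −0.37 for *Otc* and −0.30 for *Asl*, and −0.02 for the counts per cell. Over the 201 male hepatocytes, *Ass1* with *Gls2* had the highest rho of the pairs of the 9 genes, at 0.64, and *Ass1* with *Oat* the lowest, at −0.74. Over the 155 cells of the shared plate the highest pair was *Ass1* with *Hal*, at 0.74, and within its p4 cells *Ass1* had a rho of 0.0014 with *Hal*, 0.21 with *Gls2* and −0.077 with *Oat*. *Ass1* and *Asl* were both at 100 CPM or more in 125 of 203 cells, with *Ass1* alone in 30 and *Asl* alone in 15.

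Among 8534 genes counted in at least 20 male hepatocytes, the 5 most like *Glul* over 201 cells were *Teddm2* (rho 0.88), *Mir8114* (0.88), *Glns-ps1* (0.54), *Oat* (0.52) and *Gstm3* (0.50). *Teddm2* and *Mir8114* overlap exons of *Glul*, and *Glns-ps1* is named as a pseudogene of glutamine synthetase, so their counts are uncertain, as reads may be split with *Glul*. *Oat* was the gene with the highest rho among those without such a name or overlap, and *Gstm3*, a glutathione S-transferase, stood at 42.1 CPM in p4, 153 CPM in p1, 332 CPM in p3 and 642 CPM in p5.

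The clusters between the ends differed by plate. In p1 the 24 cells of the shared plate and the 38 male cells of other plates stood at 1397 and 282 CPM for *Glul*, 2199 and 1283 CPM for *Oat*, 60.8 and 393 CPM for *Cps1* and 738 and 2502 CPM for *Ass1*. *Sds* stood at 49.5 and 884 CPM, *Gls2* at 312 and 1172 CPM and *Asl* at 246 and 1198 CPM in the same cells. The p1 cells of the shared plate thus held more *Glul* and *Oat* and less of the other 5 genes, and *Cyp2e1* stood at 4049 and 1822 CPM. The 2 female p1 cells held 12.7 CPM of *Glul*, 7321 CPM of *Ass1* and 7447 CPM of *Hal*, and no count of *Sds* or *Gls2*. In p3, with 19 of 23 cells on the shared plate, *Glul* and *Oat* were high beside *Cps1*, *Otc* and *Ass1* at 100 CPM or more in 14, 18 and 17 cells, and *Hal*, *Gls2* and *Sds* in 3, 3 and 2 cells.

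Of the 74 other genes of ammonia and amino acid pathways in 7 lists, 61 were in the background of 8488 genes, and 14 (beside 20.5% of all genes) were higher in p4 and 5 (beside 18.2%) in p5, with a median log2 ratio of 0.08 beside 0.05 over all genes. The list of histidine, serine and glycine enzymes held 7 of these 14 among its 12 genes, with a median of 1.45. *Amdhd1* and *Ftcd*, which act after *Hal* in histidine breakdown, stood at 1071 and 1029 CPM in p4 and 152 and 276 CPM in p5. *Sdsl*, a relative of *Sds*, stood at 70.2 CPM in p4 and 0.209 CPM in p5, and *Amt* of the glycine cleavage system at 159 and 45.7 CPM.

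In the list of glutamine, glutamate and ammonia genes, 4 of 10 were higher in p4 and 2 in p5. The 2 higher in p5 were *Slc1a2*, at 0.152 CPM in p4 and 28.5 CPM in p5, and *Rhbg*, at 0 and 32.4 CPM. In p5 they were counted only among the 25 cells with at least 1000 CPM of *Glul*, in 5 and 3 of them. The amino acid carrier *Slc38a4* stood at 375 CPM in p4 and 60.1 CPM in p5, the glutamine carrier *Slc38a3* at 368 and 180 CPM and the transaminase *Got1* at 538 and 207 CPM. In p3, which held the central landmarks, *Slc38a4* and *Slc38a3* stood above p4, at 608 and 868 CPM. The carrier *Slc38a2* was low in both, at 22.7 and 8.88 CPM. None of the 5 urea cycle support genes reached the ratio in either direction, with *Nags*, whose product makes the activator of *Cps1*, at 188 and 303 CPM and the ornithine carrier *Slc25a15* at 822 and 626 CPM. The aspartate carrier *Slc25a13* stood at 507 and 449 CPM and the carbonic anhydrase *Car5a* at 226 and 374 CPM.

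For proline, ornithine and arginine use, 0 of 6 genes were higher in p4 and 2 in p5. *Prodh*, which starts proline breakdown, stood at 123 CPM in p4 and 400.2 CPM in p5, while *Prodh2*, *Aldh4a1* and *Gamt* had log2 ratios of 0.24, −0.40 and 0.16. Of the 11 aromatic amino acid genes 3 were higher in p4, *Tat* at 2507 and 1119 CPM, *Kynu* at 318 and 152 CPM and *Acmsd* at 91.7 and 21.6 CPM, whereas *Gstz1* had a log2 ratio of −0.35. Of 8 methionine and cysteine genes 1 was higher in p5, *Csad* of taurine synthesis, at 489 CPM in p4 and 1863 CPM in p5, with *Mat2a*, *Cbs* and *Cth* at log2 ratios of −0.54, 0.54 and 0.51. None of the 9 lysine and branched-chain genes reached the ratio, with *Gcdh*, *Bcat2*, *Hibadh* and *Aldh6a1* at −0.51, 0.53, −0.53 and −0.53.

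Outside hepatocytes, the cholangiocytes of p2 had little of most of these enzymes. In the 157 male cells, *Cps1*, *Otc*, *Gls2* and *Hal* stood at 1.05 to 8.89 CPM, *Oat* at 19.1 CPM, *Sds* at 21.1 CPM and *Ass1* at 28.1 CPM. In the 37 female cells no count of *Cps1* or *Otc* was found, and 0 of 37 allows a share of cells with a count of up to 8.11% by the limit of 3 counts and 9.49% by the exact binomial interval. *Asl*, at 100.07 and 112 CPM in male and female cells, and *Glul*, at 119 and 193 CPM, were the highest of the 9 genes there. *Alb*, the hepatocyte product, stood at 3545 CPM in the male p2 cells, and the ratio of *Cps1* to *Alb* there was 0.00805 of that in male hepatocytes.

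Across the classes, the 8 sums of counts were compared with edgeR's quasi-likelihood test. The epithelial pools were unequal, since the male pool held 201 hepatocytes and 157 cholangiocytes and the female pool 2 hepatocytes and 37 cholangiocytes. *Cps1* stood at 254 and 16.9 CPM in the epithelial pools, male first, and at 0.407 to 5.29 CPM in the 6 pools of the other classes, *Otc* at 486 and 84.1 CPM against 0.132 to 2.58 CPM, and *Hal* at 372 and 186 CPM against 1.20 to 16.6 CPM. For these 3 genes both epithelial pools lay above all others, and the share of all genes for which this holds was not counted. The female values rested on its 2 hepatocytes, since 1 of them held all 108 counts of *Cps1*, the other all 538 of *Otc*, and the female cholangiocytes held 1.92 CPM of *Hal*.

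*Ass1* stood at 761 and 232 CPM in the epithelial pools and at 10.9 to 89.0 CPM in the others, and *Asl* at 476 and 224 CPM against 36.0 to 69.1 CPM, again with no overlap. The 2 female hepatocytes gave 1157 of the 1487 female counts of *Ass1* and 729 of the 1431 of *Asl*, and the female cholangiocytes alone stood at 52.9 CPM for *Ass1*, within the range of the other classes. *Gls2* stood at 223 and 1.72 CPM against 0.272 to 4.69 CPM, and *Sds* at 166 and 2.66 CPM against 0.573 to 2.45 CPM. For *Gls2* the female epithelial pool thus lay within the range of the other classes. *Glul* stood at 420.2 and 188 CPM against 100.5 to 288 CPM, and *Oat* at 730.1 and 22.0 CPM against 109 to 975 CPM, both with overlap.

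In the test of the epithelial class against the mean of the other 3, at an adjusted p under 0.05 (Benjamini-Hochberg over all genes tested) and a change of 1 or more on the log2 scale, 7 of the 9 genes were higher, where 8.37% of 24046 genes were called higher. The log2 fold change was 5.95 ± 0.70 (SE) for *Hal* (adjusted p = 0.00151), 2.79 ± 0.36 for *Asl* (0.00224), 7.71 ± 1.02 for *Otc* (0.0025) and 4.21 ± 0.58 for *Ass1* (0.00286). It was 6.10 ± 1.08 for *Cps1* (adjusted p = 0.00875), 5.81 ± 1.10 for *Sds* (0.0120) and 5.42 ± 1.31 for *Gls2* (0.0307). For *Glul* it was 0.76 ± 0.50 (adjusted p = 0.367) and for *Oat* 0.36 ± 0.92 (adjusted p = 0.862), which did not pass. The median over all genes in this contrast was −0.27 on the log2 scale and that of the 9 genes 5.42.

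These calls changed with the cells and pools that entered the epithelial sum. With the sum of hepatocytes alone in place of the epithelial sum, all 9 genes were called higher, where 9.22% of all genes were, *Glul* by 3.05 ± 0.49 (adjusted p = 0.00924) and *Oat* by 3.35 ± 0.32 (adjusted p = 0.00177) on the log2 scale. In this fit the epithelial arm is 1 sum of 201 male hepatocytes, which is assumed to vary like the pools of the other classes. The 2 female hepatocytes fell under the 5 cells asked for and did not enter. They held *Glul* at 12.7 CPM, below all 6 other pools, and no count of *Gls2* or *Sds*. Their *Oat*, at 386 CPM, lay below both mesenchymal pools and above the endothelial and immune pools. Without the male epithelial pool 4 genes were called higher, where 4.58% of all genes were called higher and 2.62% lower, *Cps1*, *Gls2* and *Sds* lost the call (log2 fold change 2.92, −0.79 and 0.63, adjusted p = 0.192, 0.849 and 0.817) and *Oat* was called lower by 3.91 (adjusted p = 0.0144). This fit holds 1 epithelial pool of 39 cells, 37 of them cholangiocytes, which is assumed to vary like the pools of the other classes. With the pools of a sex as a block, *Gls2* (adjusted p = 0.137) and *Sds* (0.0787) lost the call. The call of *Gls2* was also lost without either endothelial pool, without either mesenchymal pool and without the female immune pool, with adjusted p of 0.0532 to 0.0757.

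**Figure D4:**
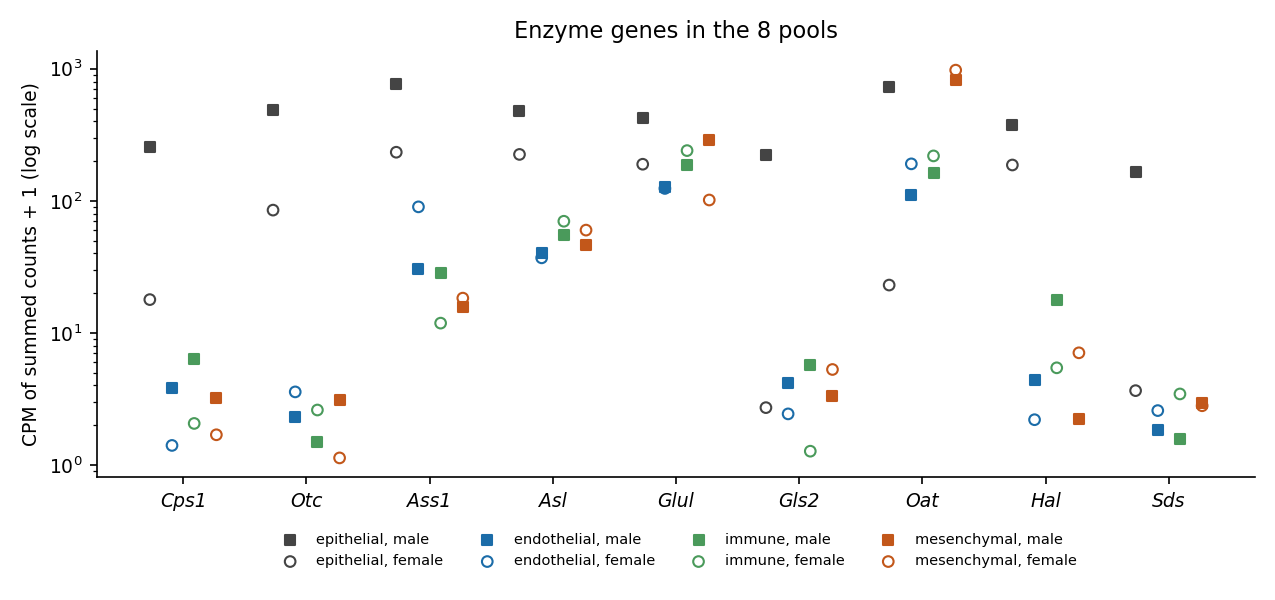
The 9 enzyme genes in the male (filled squares) and female (open circles) pool of each class, as CPM of summed counts + 1 on a log scale. *Cps1*, *Otc*, *Ass1*, *Asl* and *Hal* have both epithelial pools above all others, while *Oat* is highest in the mesenchymal pools, at 822 and 975 CPM. For *Sds* the female epithelial pool lies only just above the others, at 2.66 CPM against at most 2.45 CPM.

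*Oat* was the gene of the set that stood out among non-parenchymal cells. It held 822 and 975 CPM in the mesenchymal pools, male first, 109 and 190 CPM in the endothelial and 162 and 218 CPM in the immune pools, so that the mesenchymal pools lay above the 4 others. In the fit of the 6 pools without epithelial cells it was higher in mesenchymal cells than in the mean of the other classes by 2.48 ± 0.35 on the log2 scale (edgeR, adjusted p = 0.00613), as the 1 gene of the 9 that was called, where 10.9% of 23349 genes were called higher. The signal was spread over cells, since 984 of 1337 mesenchymal cells (73.6%) reached 100 CPM, and the 10 highest cells gave 4.06% of the counts. In endothelial cells 194 of 1106 cells (17.5%) and in immune cells 203 of 651 cells (31.2%) reached it. Over the 18 sums of mesenchymal clusters *Oat* ranged from 453 CPM in the female m3, annotated as HSC and cHSC, to 1214 CPM in the female m1, annotated as portal fibroblasts.

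In the endothelial contrast no gene of the set was called by edgeR, where 8.22% of all genes were called in either direction, although *Ass1* and *Oat* had an unadjusted p under 0.05. *Oat* was lower by −1.58 ± 0.39 (adjusted p = 0.0585), a value next to the threshold, and was called lower by DESeq2 (adjusted p = 0.00228), without the filter on low counts (0.0154), in the fit with pools of a sex as a block (0.0393), in thinned cells (0.0226) and in sums per plate (0.0114), where plates of 1 pool count as separate samples. *Ass1*, which in vessels supplies arginine for nitric oxide, stood at 29.2 and 89.0 CPM in endothelial cells against 10.9 to 27.3 CPM in immune and mesenchymal pools, a log2 fold change of 1.66 ± 0.57 (adjusted p = 0.142), which was 2.29 without the male and 0.60 without the female endothelial pool. Its pools did not overlap with the others and reached 100 CPM in 128 of 1106 cells (11.6%). In the endothelial pools, male first, the ratio of *Ass1* to *Alb* was 0.675 and 1.62 times that of male hepatocytes. For *Asl* it was 1.64 and 1.18 times. The part of hepatocyte RNA in the counts of these 2 genes was not tested. In the immune contrast no gene was called by edgeR or by DESeq2, where 14.1% of all genes were called by edgeR, and *Oat* alone had an unadjusted p under 0.05.

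*Cps1*, *Otc*, *Gls2*, *Hal* and *Sds* stood at 0.132 to 16.6 CPM in the endothelial, immune and mesenchymal pools. Much of these counts lay in few cells. The 10 highest cells gave 75.7% to 96.3% of the *Cps1* counts, 82.2% to 88.8% of the *Otc* counts, 79.3% to 92.3% of the *Gls2* counts, 71.0% to 92.6% of the *Hal* counts and 44.9% to 74.6% of the *Sds* counts of a class. *Alb* stood at 118 to 365 CPM in the same pools, and the ratio of these genes to *Alb* was 0.00204 (*Otc*, female mesenchymal pool) to 0.889 (*Hal*, male immune pool) of that in male hepatocytes. The part of hepatocyte RNA in these counts was not tested.

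*Glul* was present in every class, at 127 and 123 CPM in the male and female endothelial pools, 185 and 239 CPM in the immune pools and 288 and 100.5 CPM in the mesenchymal pools. It reached 100 CPM in 281 of 1106 endothelial cells (25.4%), 249 of 651 immune cells (38.2%) and 453 of 1337 mesenchymal cells (33.9%). Its ratio to *Alb* was 2.15 to 18.5 times that of male hepatocytes in these pools. All 6 pools were below the 2365 CPM of p5.

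Between the clusters within a class, no gene of the 9 was called by edgeR's F test, where 2.06% of genes were called over endothelial, 2.94% over immune and 4.38% over mesenchymal clusters. At an unadjusted p under 0.05 there were 3 over endothelial clusters (*Cps1*, *Ass1* and *Glul*), 0 over immune clusters and 2 over mesenchymal clusters (*Glul* and *Oat*, adjusted p = 0.112 and 0.167). The likelihood ratio test of DESeq2 called *Cps1*, *Ass1* and *Gls2* over endothelial, none over immune and *Glul* and *Gls2* over mesenchymal clusters, where it called 17.3%, 5.26% and 15.5% of all genes. With a block for the pools of a sex, *Oat* was called over mesenchymal clusters (adjusted p = 0.0490), where 4.41% of all genes were.

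*Glul* in the mesenchymal clusters went with 1 plate. The cluster m8, annotated as portal fibroblasts like m1 and m10, had the highest level at 1063 CPM, and 153 of its 156 cells (98.1%) lay on 1 male plate. On that plate *Glul* was also 588 CPM in m1, 301 CPM in m2, 267 CPM in m3, 852 CPM in m4, 703 CPM in m5, 196 CPM in m7, 711 CPM in m9 and 390.5 CPM in m10. On the other male plates the same clusters held 164, 83.4, 122, 331, 133, 78.4, 242 and 222 CPM, so that each of these 8 clusters with at least 5 cells on both sides was higher on the plate of m8, while m6 and m8 had fewer than 5 cells on one side and were not compared. *Oat* did not show this, with 719 and 1141 CPM in m1, 155 and 1061 CPM in m5 and 1281 and 744 CPM in m10. Without m8, the adjusted p of *Glul* over mesenchymal clusters was 0.649. For m8, its plate and its cluster cannot be told apart.

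**Figure D5:**
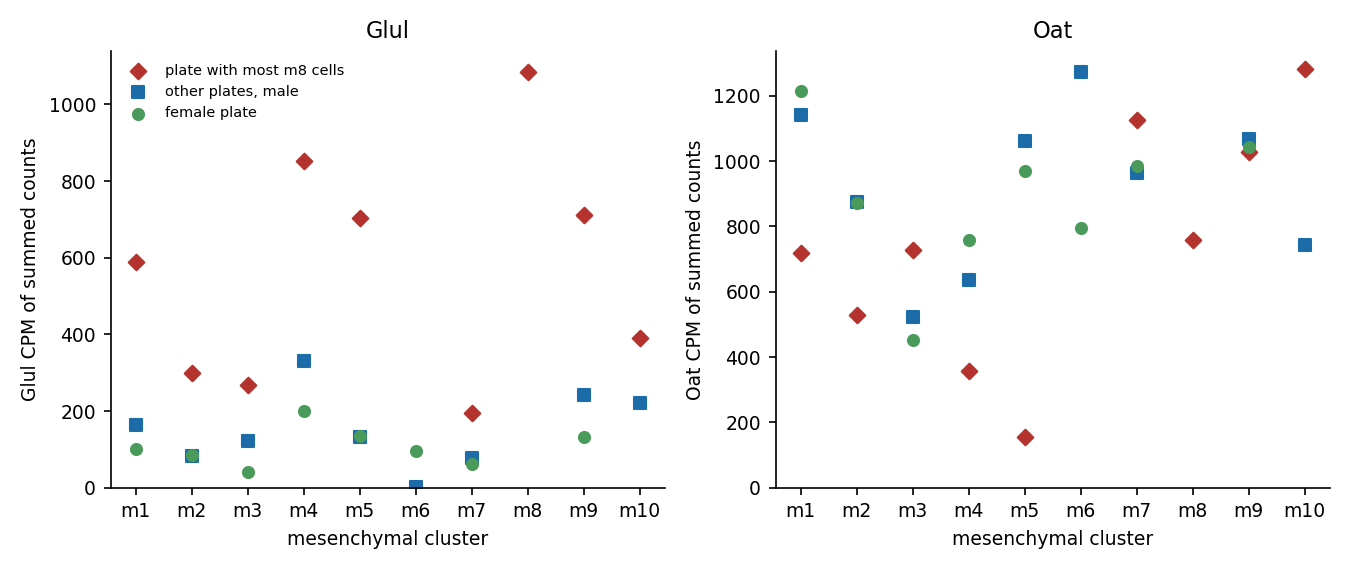
*Glul* and *Oat* in the mesenchymal clusters, as CPM of summed counts, on the plate with most m8 cells, on other male plates and on the female plate. *Glul* is higher on the m8 plate in each of the 8 clusters with at least 5 cells on both kinds of male plate, while *Oat* is higher in some and lower in others.

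The endothelial clusters e1 and e2, annotated as central vein and as portal vein with some peribiliary vessels, were compared as the 2 ends of the same axis, and e7, with 150 cells, also carries the central vein annotation. *Glul* stood at 63.2 CPM in e1 and 287 CPM in e2 among male cells and at 61.1 and 311 CPM among female cells, so that both pools were higher on the portal side, and the log2 fold change was −2.23 ± 1.01 (edgeR, adjusted p = 0.826). *Ass1* stood at 98.8 and 25.7 CPM in male and 141 and 89.7 CPM in female cells, and *Asl* at 87.2 and 29.6 CPM and at 37.1 and 11.1 CPM, both higher in e1 in each pool. In e7, *Glul* stood at 91.6 and 113 CPM, *Ass1* at 37.6 and 153 CPM and *Asl* at 16.01 and 87.3 CPM, male first, so that *Glul* was below and *Ass1* above e2 in each pool, while *Asl* was below e2 in the male and above it in the female pool. No gene of the 9 was called by edgeR or DESeq2, where 0.0764% of genes were called by edgeR, and *Otc* and *Glul* had an unadjusted p under 0.05. In all, 14 of 18321 genes were called.

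Of the 74 pathway genes, 41 were called higher and 1 lower in epithelial cells among 72 tested, where 8.37% and 4.05% of all genes were. *Nags* stood at 97.2 and 36.7 CPM in the male and female epithelial pools and at 0 to 0.330 CPM in the others, and *Amdhd1* at 215 and 9.84 CPM against 0.0615 to 1.42 CPM. *Slc25a15* was higher by 4.27 ± 0.72 (edgeR, adjusted p = 0.00744) and *Sdsl*, at 51.8 and 45.5 CPM, by 8.07 ± 0.80 (adjusted p = 0.000834). The 1 gene called lower, named after its value was seen, was *Gatm*, the first enzyme of creatine synthesis, at 6.10 and 11.1 CPM in epithelial pools and 17.1 to 552 CPM in the others. *Glud1*, *Slc38a2* and *Slc1a5* were not called.

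Among the other classes, 3 of 71 pathway genes were called higher and 6 lower in endothelial, 8 and 4 in immune and 7 and 3 in mesenchymal cells. Over all genes the shares were 4.68% and 3.55%, 7.2% and 6.94%, and 10.9% and 4.38% in the same order. *Nos3*, the endothelial nitric oxide synthase, stood at 211 and 274 CPM in endothelial pools and at 0.264 to 3.15 CPM in immune and mesenchymal ones (log2 fold change 6.76 ± 0.92, edgeR, adjusted p = 0.0104), and *Aass* of lysine breakdown was higher there by 5.33 ± 0.55 (adjusted p = 0.00494), while *Psat1* of serine synthesis was lower by −5.71 ± 1.23 (0.0402). *Kmo* and *Kynu* of tryptophan breakdown were called higher in immune cells by 6.31 and 6.24 (adjusted p = 0.0287 and 0.0239), with 140.5 and 33.3 CPM in the male but 1.98 and 1.27 CPM in the female immune pool. In mesenchymal cells, *Pycr1* of proline synthesis was higher by 4.62 ± 0.64 (adjusted p = 0.00599), at 24.5 and 30.5 CPM, and the carrier *Slc1a4* stood at 32.0 and 25.7 CPM (adjusted p = 0.00139) against 3 counts in all immune cells. *Sdsl* was also called there (adjusted p = 0.0114), at 0.920 and 7.33 CPM.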

How the data were processed

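Smart-seq2 libraries of single wells were demultiplexed, aligned and counted by the authors. The submitters' processing notes name bcl2fastq, Bowtie, Bowtie2, featureCounts, Subread and Seurat and the builds GRCm38 and mm10, with the versions of the aligner and counter and the strand setting not given in the sources used here. The deposited table holds raw counts per gene and cell, after the authors removed low-quality cells and putative doublets. The deposited annotation gave class, cluster and sex of each cell, and the 92 ERCC rows stayed out of totals. Counts of all cells of a cluster or pool were summed and divided by their total (CPM). Hepatocyte clusters have 1 pool each and were described by log2 ratios (pseudocount 0.5 CPM, at least 10 CPM in either cluster) without a test.

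Classes and clusters (cluster sums of at least 5 cells) were tested with edgeR 4.0.16, quasi-likelihood, TMM and filterByExpr, in R 4.3.3. DESeq2 1.42.0, other filters, thinning, sums per plate, a block for the pools of a sex and left-out pools were alternatives. Values on the shared hepatocyte plate and on the plate of m8 were added after seeing the data. Pools of separate mice are not stated, so p-values measure the spread between pools, which also differ in sex. Same-sex pools of different classes deviated with correlations of 0.088 to 0.096, and those of mesenchymal clusters with a median of 0.122 and a range of 0.011 to 0.172, so not every pair deviated together and the block is an alternative only. On simulated data 85% of 4-fold and 7% of 2-fold changes were recovered among 24046 genes for the epithelial contrast, and 66% and 1% among 18321 genes for e1 against e2. All sums were drawn from 1 common profile at a dispersion of 0.1, only well-counted genes were changed, and calls used the adjusted p alone. The unequal epithelial pools were not simulated, so these shares are not the power of the real tests. Of the 10 genes 1, and a few pathway genes, stayed in all totals and fits but are not reported here. Named beside the other 9 were landmarks, up to 4 pathway genes a list with the largest ratio among those counted in at least 25% of cells of the higher cluster, isozymes and partners (Sdsl, Slc25a15, Glud1, Slc38a2, Slc1a5), up to 3 called pathway genes a contrast with the largest fold change and the 5 genes most like *Glul*. *Slc1a2* and *Rhbg* were named outside these rules, to show the other direction of their list. Genes and lists were chosen with earlier results of these data known. Of the marker symbols, 1 (Hbb-bs) was not matched.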

Additional observations from a re-analysis of the deposited data

Results flagged for a closer look

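Between the endothelial clusters e1 (central vein) and e2 (portal vein), 3 of the 9 genes had a ratio in both pools with the sign opposite to that in hepatocytes, where p5 stands for the central and p4 for the portal end. *Glul* had a log2 ratio of central to portal of −2.17 in the male and −2.34 in the female endothelial pool and 5.82 in hepatocytes. *Ass1* had ratios of 1.92 and 0.65 in the endothelial pools and −1.68 in hepatocytes, and *Asl* 1.54 and 1.69 in the endothelial pools and −1.07 in hepatocytes. None of the 9 genes was called between e1 and e2 (edgeR, adjusted p = 0.826 for *Glul*). These differences between cell types were not tested, because the hepatocyte clusters have 1 pool each. Nor was the part of hepatocyte RNA in the endothelial counts of *Ass1* and *Asl* tested. Of the other genes, *Otc* and *Oat* had the same sign as in hepatocytes and *Cps1*, *Gls2*, *Hal* and *Sds* had different signs in the 2 endothelial pools.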

How the results depend on the processing

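The split of the 9 genes between p4 and p5, 6 higher in p4 and 2 in p5, was the same on the TMM scale, with means of cell CPM, in thinned cells, on the shared plate and without the filter on low values, which moved the counts of all genes to 3412 and 2409. Leaving out the largest plate of each cluster was not run, because 3 p4 cells and 1 p5 cell would remain. The share of cells with *Glul* was 10.2% in p4 and 64.9% in p5 with at least 20 counts and 45.8% in p4 after thinning. In the epithelial contrast, leaving out 1 pool at a time gave 4 to 7 of the genes higher and 0 to 1 lower, 1230 to 1915 genes higher and 600 to 937 lower, and log2 fold changes of −0.79 to 6.51 for *Gls2*, −0.065 to 1.33 for *Glul* and −3.91 to 1.36 for *Oat*, each lowest without the male epithelial pool. No filter gave 3210 higher and 1856 lower, DESeq2 2595 lower and hepatocytes alone 2205 lower. For the fits without epithelial cells, left-out pools gave 209 to 1200 genes higher and 96 to 951 lower in endothelial cells, 835 to 1530 and 931 to 1503 in immune cells, and 1084 to 2405 and 359 to 1059 in mesenchymal cells, with the log2 fold change of *Glul* there at −0.69 to 0.99 (main 0.37), lowest without the male mesenchymal pool. *Oat*, called higher in mesenchymal cells in each of these settings, was the 1 gene called lower in endothelial cells by DESeq2 (2021 genes higher, 2622 lower), no filter (1677 and 1517), the replicate block, thinning and sums per plate (1294 lower). DESeq2 gave 2728 higher and 3298 lower in immune and 2266 lower in mesenchymal cells. Over endothelial clusters, 3 genes of the set (3804 of all) were called without a filter, 1 (634) in sums of at least 10 cells, 0 (637) in thinned cells and 3 (3166) by DESeq2, with 367 to 641 of all genes on leaving out 1 sum. Over immune clusters 0 were called in every setting, with 1016 of all genes without a filter, 268 with the block, 247 in sums of at least 10 cells, 255 in thinned cells, 1058 by DESeq2 and 92 to 1311 on leaving out 1 sum. Over mesenchymal clusters the block called *Oat* (986 of all 22365 genes). No filter (4226 of all 30687 genes), sums of at least 10 cells (1064 of 22086) and thinned cells (1201 of 18134) each called 1, *Glul*. DESeq2 called 2 (3476), and leaving out 1 sum called 0 to 1 (540 to 1224), *Glul* without either sum of m6. For e1 against e2, leaving out 1 sum gave log2 fold changes of 0.48 to 2.24 for *Ass1* and 0.89 to 2.55 for *Asl*, none called, and all genes higher and lower were 33 and 38 without a filter, 34 and 16 in sums of at least 10 cells, 18 and 14 in thinned cells, 145 and 161 by DESeq2, and 3 to 8 and 3 to 5 on leaving out 1 sum. The cause of these shifts was not tested. The pools of a sex share no stated mouse, and the block for this pairing took *Gls2* and *Sds* out of the epithelial calls, leaving 5. Of all 24046 genes, 1735 were called higher and 993 lower with the block. In all, 504 recomputed values stayed the same by the rule for their kind, 117 moved further, 9 fell below the threshold, 7 rose past it and 4 changed sign. The rule was a set fold of the main value for counts of genes, and sign and call for tested fold changes. For hepatocyte ratios and shares of cells with *Glul* it was the interval of counting error. Depth limits the low members: 13 cells fell under 50000 counts, and class pool values under 1 CPM rest on 15 to 148 counts.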

Other observations

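Between clusters within a class, *Gatm* of creatine synthesis differed over immune clusters (edgeR F test, adjusted p = 0.0110) and over mesenchymal clusters (adjusted p = 0.0206), and *Kmo* differed over immune clusters (adjusted p = 0.0270). *Bcat1* of branched-chain amino acid breakdown and *Asns*, which makes asparagine from glutamine, differed over mesenchymal clusters (adjusted p = 0.0221 and 0.0320). In all, 2 of 66 pathway genes were called over immune, 4 of 70 over mesenchymal and 0 of 67 over endothelial clusters, where 2.94%, 4.38% and 2.06% of all genes were called.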
